A study of Mus musculus with 8 samples.

Results

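The neurexins, neuroligins and leucine-rich repeat transmembrane proteins (LRRTMs) analysed here are 9 genes chosen by name: *Nrxn2* and *Nrxn3*, *Nlgn1*, *Nlgn2* and *Nlgn3*, and *Lrrtm1*, *Lrrtm2*, *Lrrtm3* and *Lrrtm4*. They are 9 of the 45706 genes in the deposited table, and all 9 are among the 14962 genes that passed the filter on low counts. Other genes of these families were not analysed here. The measurements come from bulk RNA sequencing of hippocampal neurons cultured from C57/Bl6 wild-type mouse embryos at embryonic day 18, which received melanin-concentrating hormone (MCH) peptide at 1 µM or the vehicle (H2O) for 4 h and were collected at 12 to 14 days in vitro. Each treatment has 4 wells, numbered here as replicates 1 to 4. According to the methods of the study, they came from 2 independent cultures with a pair of wells per treatment in each, but no label ties a well to a culture. The sample labels also carry an Alzheimer's disease model tag, while their genotype entry is wild type, and no allele or transgene separates the groups. MCH is a hypothalamic peptide, and the comparison asks which transcripts of these cultures respond to it.

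Neurexins sit mainly on presynaptic terminals and bind neuroligins and LRRTMs across the synaptic cleft, which makes these families organizers of synapse formation and of synaptic strength. Each neurexin gene has an upstream promoter that gives the long alpha form and an internal promoter that gives the short beta form, and alternative exons change which partners bind. The exon at splice site 4 lowers the binding of LRRTMs and favours binding of secreted cerebellins. *Nlgn1* is found mainly at excitatory synapses, *Nlgn2* mainly at inhibitory synapses and *Nlgn3* at both. *Lrrtm1* and *Lrrtm2* are postsynaptic proteins of excitatory synapses that help to hold AMPA receptors, and *Lrrtm3* and *Lrrtm4* also bind heparan sulfate proteoglycans.

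The alternative exons that set these binding properties are shown because the transcripts that carry or lack them were measured separately. Sequences were read from the GENCODE vM21 transcripts on GRCm38, 5′ to 3′ in the sense of the gene. Capitals mark the alternative exon, and the 15 bases in lower case on each side belong to the neighbouring exons of a transcript that includes it. The splice site 4 exon of *Nrxn3* lies at chr12:90199147-90199236 on the plus strand and is 90 bases long. The site A exon of *Nlgn1* lies at chr3:25920178-25920237 and its site B extension at chr3:25439865-25439891, both on the minus strand. The site A exon of *Nlgn2* lies at chr11:69830563-69830613 on the minus strand. The site A exons of *Nlgn3* lie at chrX:101303072-101303131 and chrX:101307075-101307134 on the plus strand.
*Nrxn3* splice site 4: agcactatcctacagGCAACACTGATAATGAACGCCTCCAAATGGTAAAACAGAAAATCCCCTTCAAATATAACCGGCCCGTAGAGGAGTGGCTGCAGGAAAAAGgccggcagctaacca
*Nlgn1* site A: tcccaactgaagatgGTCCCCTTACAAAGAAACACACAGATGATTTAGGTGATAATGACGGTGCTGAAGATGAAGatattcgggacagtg
*Nlgn1* site B: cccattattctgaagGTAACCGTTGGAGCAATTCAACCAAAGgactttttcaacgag
*Nlgn2* site A: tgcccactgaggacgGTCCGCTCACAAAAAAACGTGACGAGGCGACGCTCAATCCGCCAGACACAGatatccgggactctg
*Nlgn3* site A, first exon: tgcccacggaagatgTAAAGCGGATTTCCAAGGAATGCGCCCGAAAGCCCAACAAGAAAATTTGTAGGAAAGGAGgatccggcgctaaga
*Nlgn3* site A, second exon: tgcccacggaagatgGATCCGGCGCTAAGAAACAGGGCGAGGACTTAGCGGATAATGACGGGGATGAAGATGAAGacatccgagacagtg

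Aligned without gaps, the second site A exon of *Nlgn3* matches the site A exon of *Nlgn1* at 43 of 60 bases (71.7%). The first site A exon of *Nlgn3* matches that of *Nlgn1* at 16 of 60 bases (26.7%), and the pair of *Nlgn3* exons match each other at 19 of 60 (31.7%).

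The libraries held 26083936 to 31844861 estimated counts on genes, and the members held between 239 counts (*Lrrtm3*) and 20099 counts (*Nrxn2*) per well. Wells of replicates 1 and 2, and wells of replicates 3 and 4, deviated together from their treatment means, whether or not their numbers were equal. These replicate groups stood apart from each other in both treatments. The first principal component of these deviations held 59.8% of their variance. The summed level of 8 astrocyte markers, in TPM (a unit scaled for transcript length and depth), was 328 to 367 TPM in replicates 1 and 2 and 923 to 1084 TPM in replicates 3 and 4, while it spanned 328 to 972 TPM over vehicle-treated and 347 to 1084 TPM over MCH-treated wells. The summed level of 10 neuronal markers was 6074 to 6443 TPM in replicates 1 and 2 and 5571 to 5756 TPM in replicates 3 and 4. That of 8 inhibitory neuron markers was 5156 to 5469 TPM in replicates 1 and 2 against 3429 to 4174 TPM in replicates 3 and 4. Of the markers of other cells, *Mog* and *Sox10* were at 0 in every well, and the summed levels of the oligodendrocyte lineage (35.9 to 113 TPM), microglial (24.0 to 37.6 TPM) and fibroblast or vessel lists (15.8 to 53.6 TPM) were far below the neuronal one. These sums were also higher in replicates 3 and 4 without overlap. In replicates 1 and 2 they reached at most 41.8, 28.2 and 25.3 TPM, and in replicates 3 and 4 they were at least 93.1, 28.3 and 49.3 TPM. Fewer cells of a type and less RNA per cell cannot be told apart in such bulk samples.

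All 9 members were detected in every well, and their level per length spanned a 27.5-fold range of mean TPM. *Nrxn2* was highest, at 345 ± 19.3 TPM (mean ± SD, n = 8 wells), followed by *Nlgn2* at 173 ± 9.40 TPM. *Nrxn3* had 66.2 ± 9.52 TPM, *Nlgn1* 53.6 ± 3.49 TPM, *Lrrtm1* 53.6 ± 4.92 TPM and *Nlgn3* 53.2 ± 4.29 TPM. The ranges of these 4 genes overlapped from each to the next. *Nrxn3* exceeded *Nlgn1* in 7 of 8 wells, *Nlgn1* exceeded *Lrrtm1* in 3 and *Lrrtm1* exceeded *Nlgn3* in 6. The order of *Nlgn1*, *Lrrtm1* and *Nlgn3* is thus not resolved by these data. *Lrrtm2* followed at 33.1 ± 2.31 TPM, below *Nlgn3* in all 8 wells. *Lrrtm4*, at 16.7 ± 1.91 TPM, and *Lrrtm3*, at 12.6 ± 3.58 TPM, were lowest, with overlapping ranges and *Lrrtm4* higher in 7 of 8 wells.

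The order depends in part on transcripts that are not annotated as protein-coding, among them *Nrxn3-208* (9.83 TPM), a form annotated for nonsense-mediated decay. Protein-coding transcripts held 67.8% of the *Nrxn2* level, 61.6% of the *Nrxn3* level and 28.7% of the *Lrrtm3* level, against 82.1% to 100% in the other 6 members. When they alone were summed, an alternative chosen after seeing the data, *Nrxn2* (234 ± 10.8 TPM, n = 8) and *Nlgn2* (144 ± 2.53 TPM) remained the highest. *Nrxn3* dropped to sixth with 40.8 ± 4.83 TPM, and *Lrrtm3* fell to 3.61 ± 0.879 TPM.

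**Figure D1:**
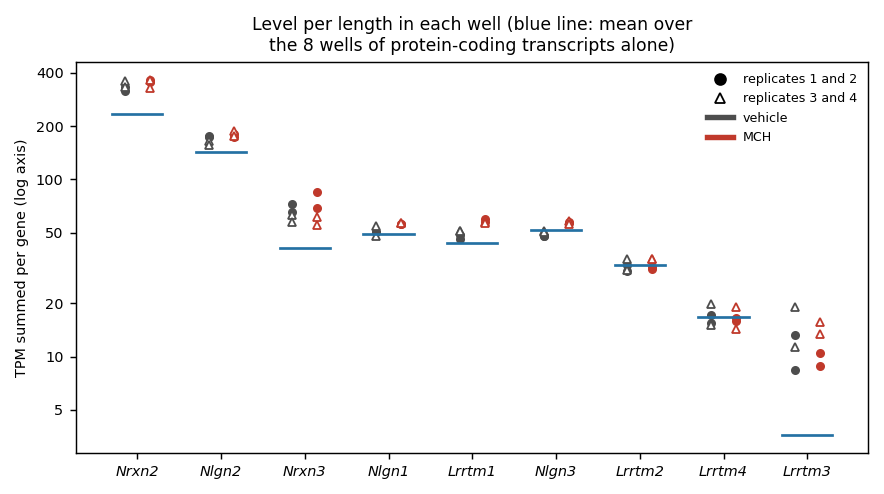
TPM summed over all transcripts of each gene (log axis) in each of the 8 wells, with circles for replicates 1 and 2, triangles for replicates 3 and 4 and colours for the treatments; the blue line is the mean over the 8 wells of protein-coding transcripts alone. *Nrxn2* and *Nlgn2* stand above the others, 4 genes lie together at means of 53.2 to 66.2 TPM, and the blue line of *Lrrtm3* at 3.61 TPM is far below its points.

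With MCH, none of the 9 members passed the threshold of an adjusted *P* value of 0.05 in edgeR's quasi-likelihood test over all genes, which called 35 of 14962 genes (0.234%). *Lrrtm1*, *Nlgn1* and *Nlgn3* had higher levels in the MCH-treated well of each of the 4 pairs of equal replicate number. The edgeR fit without a block put their increases at 14.99%, 10.3% and 8.79%. These were the 3 members with an unadjusted *P* value under 0.05, as 1272 of all genes (8.50%) had. Equal numbers were paired by assumption, and the share of all genes with the same direction in all 4 pairs is not given here. DESeq2 called 1 member (*Lrrtm1*) among 1.19% of genes, and limma voom called 0. With the replicate number as a block, edgeR called these 3 members, all higher, among 3.98% of all genes (1.73% were called higher). The other 6 members were called by none of these fits.

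**Figure D2:**
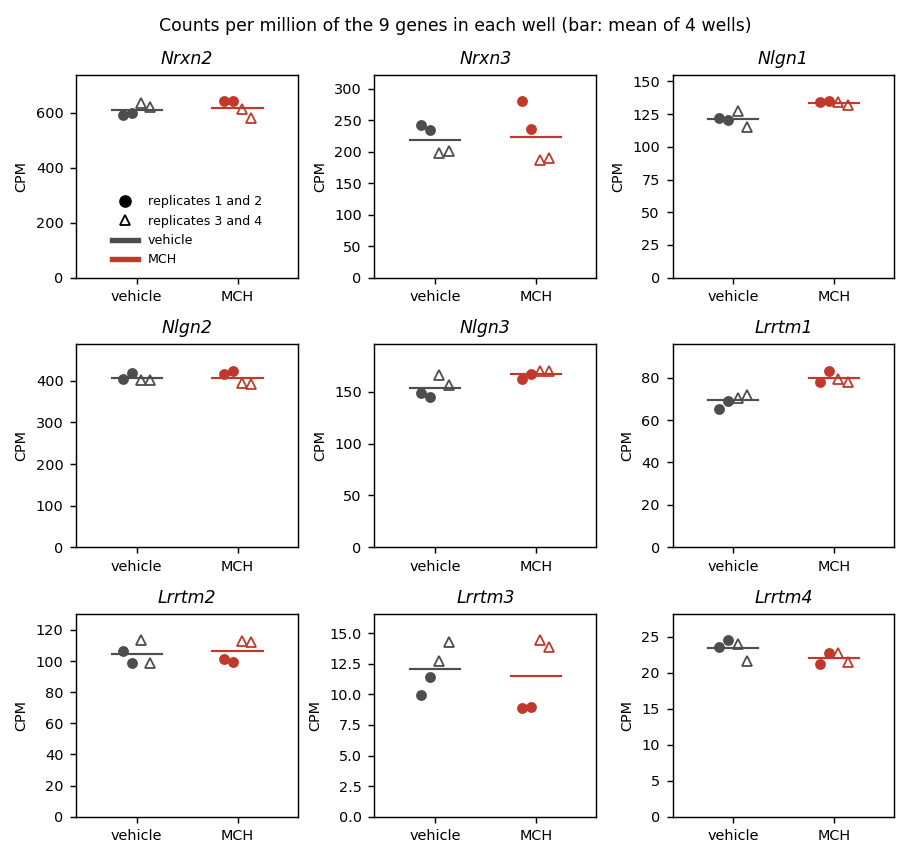
Normalised read counts (CPM) of each gene in each well, from 0, with the mean of 4 wells as a bar, circles for replicates 1 and 2 and triangles for replicates 3 and 4. The MCH-treated wells of *Nlgn1* and *Lrrtm1* all lie above the vehicle-treated wells, while the points of *Nrxn3* and *Lrrtm3* separate by replicate group in both treatments.

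Among the LRRTMs, *Lrrtm1* (ENSMUSG00000060780, chromosome 6, 77242689 to 77257791 on GRCm38) had normalised read counts (CPM, scaled for library size and not for length) of 65.3, 69.1, 70.6 and 72.0 in vehicle replicates 1 to 4 and 78.1, 83.3, 79.2 and 77.9 in MCH replicates 1 to 4. The treatments did not overlap, as was the case for 6.03% of all genes tested, and *Nlgn1* was the only other member of which this holds. The log2 fold change was 0.20 ± 0.042 (SE), with a 95% interval from 0.11 to 0.30, an unadjusted *P* value of 0.000873 and an adjusted *P* value of 0.144 in edgeR. With the replicate block it was 0.20 ± 0.038 with an adjusted *P* value of 0.00464, and DESeq2 gave an adjusted *P* value of 0.00907. MCH exceeded vehicle by 0.26 (log2) within replicates 1 and 2 and by 0.14 within replicates 3 and 4. *Lrrtm1* lies inside *Ctnna2*, a catenin gene on the opposite strand, which had 122 CPM and a log2 fold change of -0.039 (adjusted *P* value 0.873 in edgeR).

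*Lrrtm2*, which like *Lrrtm1* is known from excitatory synapses, did not separate the treatments. Its CPM were 106, 98.8, 113 and 98.6 in vehicle replicates 1 to 4 and 101, 99.3, 113 and 113 in MCH replicates 1 to 4. The log2 fold change was 0.029 ± 0.062, with a 95% interval from -0.11 to 0.17 (edgeR adjusted *P* value 0.990).

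*Lrrtm3* and *Lrrtm4* had the lowest counts of the 9 genes and had lower means with MCH. *Lrrtm3* had CPM of 9.91, 11.5, 12.7 and 14.3 in vehicle replicates and 8.88, 8.97, 14.4 and 13.9 in MCH replicates. Its highest and lowest wells followed the replicate group, and the log2 fold change of -0.068 ± 0.19 had an interval from -0.50 to 0.36 (edgeR adjusted *P* value 0.996). *Lrrtm4* had CPM of 23.5, 24.5, 24.0 and 21.7 in vehicle replicates and 21.1, 22.7, 22.7 and 21.6 in MCH replicates. It was lower with MCH in each of the 4 pairs, but the ranges overlapped, and the log2 fold change was -0.088 ± 0.055, with an interval from -0.21 to 0.036 (edgeR adjusted *P* value 0.751, and 0.433 with the replicate block).

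Among the neuroligins, *Nlgn1* (ENSMUSG00000063887, chromosome 3, 25426215 to 26332460) had CPM of 122, 121, 127 and 116 in vehicle replicates 1 to 4 and 135, 135, 134 and 132 in MCH replicates 1 to 4. Every MCH-treated well was above every vehicle-treated well, and the MCH wells varied by an SD of 1.43 CPM against 4.75 CPM in vehicle. The log2 fold change was 0.14 ± 0.037, with an interval from 0.060 to 0.22, an unadjusted *P* value of 0.00341 and an adjusted *P* value of 0.254 in edgeR. With the replicate block it was 0.14 ± 0.032 with an adjusted *P* value of 0.0174, and DESeq2 gave 0.0670. The differences within replicates 1 and 2 (0.15) and within replicates 3 and 4 (0.13) were close to each other.

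*Nlgn3* (ENSMUSG00000031302, chromosome X, 101299168 to 101325963) had CPM of 149, 145, 166 and 157 in vehicle replicates and 162, 168, 171 and 170.1 in MCH replicates. Vehicle replicate 3 exceeded MCH replicate 1, so the treatments overlapped in CPM. The log2 fold change was 0.12 ± 0.047, with an interval from 0.016 to 0.23 and an adjusted *P* value of 0.510 in edgeR, and 0.0448 with the replicate block. Per length, the levels of *Nlgn3* were 48.0, 47.9, 51.2 and 50.3 TPM in vehicle replicates and 56.4, 57.5, 58.3 and 55.9 TPM in MCH replicates, without overlap. With the average transcript length of each well as an offset, the log2 fold change was 0.19 ± 0.037 (edgeR adjusted *P* value 0.224). The TPM and this offset depend on how salmon divided reads among overlapping transcripts. Of these, *Nlgn3-201* and *Nlgn3-203* each have 0 exonic bases of their own. The share of all genes whose treatments do not overlap in TPM is not given here.

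*Nlgn2*, the neuroligin of inhibitory synapses, had CPM of 406, 419, 401 and 402 in vehicle replicates 1 to 4 and 417, 425, 394 and 393 in MCH replicates 1 to 4. The wells differed by replicate group more than by treatment. The means were 407 ± 8.30 CPM in vehicle and 407 ± 16.1 CPM in MCH (SD, n = 4), and the 95% interval of the log2 fold change ran from -0.085 to 0.085 (edgeR adjusted *P* value 1.0). With the average transcript length of each well as an offset, the log2 fold change was 0.079, with an interval from -0.035 to 0.19 (edgeR adjusted *P* value 0.849). Whether the change of *Nlgn1* or *Nlgn3* differs from that of *Nlgn2* was not tested.

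**Figure D3:**
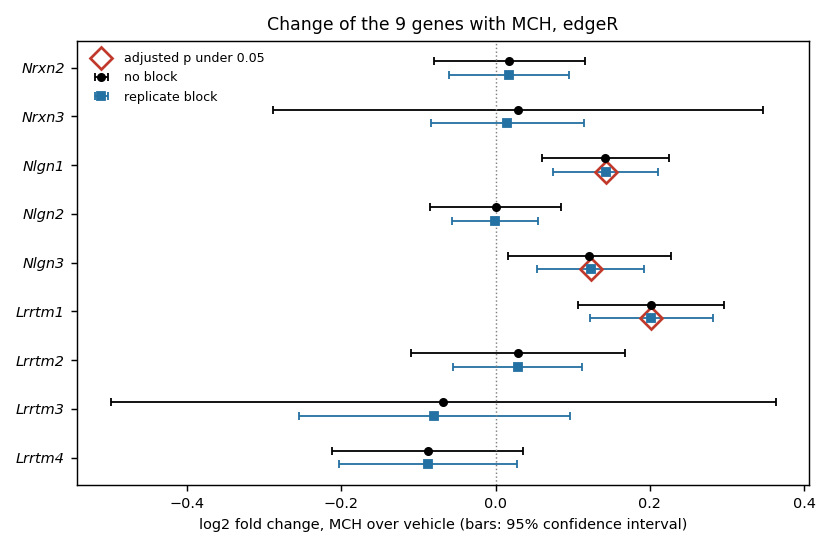
Log2 fold change of MCH over vehicle for each gene in edgeR without a block (circles) and with the replicate number as a block (squares), with 95% confidence intervals; red diamonds mark an adjusted *P* value under 0.05. The squares of *Nlgn1*, *Nlgn3* and *Lrrtm1* are marked and no circle is, and the intervals of *Nrxn3* and *Lrrtm3* narrow most with the block.

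The neurexin genes did not differ between the treatments beyond the spread of the wells. *Nrxn2* had CPM of 591, 599.7, 635 and 622 in vehicle replicates 1 to 4 and 642, 643, 613 and 580.4 in MCH replicates 1 to 4. MCH was higher in replicates 1 and 2 and lower in replicates 3 and 4, and the log2 fold change was 0.018 ± 0.044, with an interval from -0.080 to 0.12 (edgeR adjusted *P* value 0.994). *Nrxn3* had CPM of 243, 234, 198 and 202 in vehicle replicates and 280.3, 236, 187 and 191 in MCH replicates. Its log2 fold change was 0.029 ± 0.14, with an interval from -0.29 to 0.35 (edgeR adjusted *P* value 1.0), and MCH replicate 1 was the highest well.

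The replicate group (1 and 2, or 3 and 4) was the larger source of spread for several members. *Nrxn3* was lower in replicates 3 and 4 than in replicates 1 and 2 by 0.35 (log2), with mean CPM of 194 against 248. *Lrrtm3* was higher there by 0.50, with 13.8 against 9.80 CPM. *Nlgn2* was lower by 0.067, with 398 against 417 CPM. In these 3 members the replicates of one side did not overlap those of the other, a pattern that 29.6% of all genes tested showed. The summed marker levels of all the cell types given above moved with the same split, and their part in these differences was not tested. These replicate groups were read from the counts, so the differences are a description, and the median absolute difference was 0.067 over the members and 0.12 over all genes.

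Across the 8 wells, which share treatments and replicate groups, the members fell into patterns that are described here without a test. *Lrrtm1* and *Nlgn3* (r = 0.79), *Nlgn1* and *Lrrtm1* (r = 0.79) and *Nlgn1* and *Nlgn3* (r = 0.75) varied together, as did *Nrxn3* and *Nlgn2* (r = 0.79). *Nrxn3* and *Lrrtm3* ran opposite to each other (r = -0.92). Among the 14953 other genes tested, the one most like *Lrrtm1* in log2 CPM was *B230369F24Rik* (r = 0.99), the one most like *Nlgn1* was *Mbd6* (r = 0.99), and the one most like *Nlgn3* was *Nhsl1* (r = 0.99). The most alike were *Srgap1* for *Nrxn3* (r = 0.99), *Arhgef40* for *Lrrtm3* (r = 0.99), *Bpifc* for *Nlgn2* (r = 0.97), *G6pc3* for *Lrrtm2* (r = 0.96) and *Prrt1* for *Nrxn2* (r = 0.95). Genes with r over 0.9 numbered 736 for *Lrrtm3* and 369 for *Nrxn3*, the members with the widest gap between replicate groups, against 10 for *Nrxn2* and 13 for *Lrrtm4*.

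Transcripts were examined next, since a stable gene level can hide a shift between forms. Of the 60 transcripts of the members, 43 passed the filter on low counts. None was called with MCH by edgeR without a block, where 0 of 33527 transcripts of all genes were called (0%), or with the replicate block. Without adjustment, 5 of the 43 had a *P* value under 0.05, beside 1476 of the 33527 transcripts of all genes. Of the 43, 3 did not overlap between the treatments, beside 3.87% of all transcripts. The 5 were *Nlgn3-201*, *Nlgn3-202*, *Nlgn3-203*, *Nlgn1-205* and *Lrrtm1-202*, and the 3 were *Nlgn1-205*, *Lrrtm1-202* and *Nrxn2-206*. *Nrxn2-206*, which has no coding sequence and 124 exonic bases of its own, had 13.5, 0, 6.97 and 10.5 TPM in vehicle replicates 1 to 4 and 22.5, 21.9, 24.99 and 32.9 TPM in MCH replicates 1 to 4 (edgeR adjusted *P* value 1.0). It was named, like *Nlgn3-201*, *Nlgn3-202* and *Nlgn1-205*, after its values were seen. Salmon divides reads among overlapping transcripts by estimation, and that error is not part of the test.

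Among the neurexin transcripts classed as alpha or beta, alpha exceeded beta in every well. These classes held 57.6% to 64.1% of the *Nrxn2* level and 56.9% to 66.0% of the *Nrxn3* level per well. The ratios therefore leave out the other transcripts. Among these is *Nrxn2-211* (57.6 TPM over the 8 wells), which has no coding sequence and starts at 6497671 on chromosome 19, near the beta transcript *Nrxn2-202* at 6497828. In *Nrxn2*, alpha (4 transcripts with a coding sequence over 3000 bases) summed to 135 ± 4.65 TPM with vehicle and 139 ± 8.64 TPM with MCH, and beta (2 transcripts) to 69.7 ± 9.28 and 69.99 ± 8.46 TPM (SD, n = 4). The alpha-to-beta ratio of *Nrxn2* was 2.32, 1.95, 1.94 and 1.66 in vehicle replicates 1 to 4 and 2.25, 1.98, 1.62 and 2.19 in MCH replicates 1 to 4. The treatments overlapped, and the log2 ratio differed by 0.030 (MCH minus vehicle, exact two-sided permutation test over 70 assignments, *P* = 0.943, the same after adjustment for 2 tests).

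In *Nrxn3*, alpha (3 transcripts) summed to 31.1 ± 2.91 TPM with vehicle and 31.7 ± 4.45 TPM with MCH, and beta (2 transcripts) to 9.42 ± 1.08 and 9.36 ± 1.78 TPM (n = 4). The ratio of *Nrxn3* was 3.18, 3.35, 3.31 and 3.41 in vehicle replicates and 3.30, 3.19, 3.62 and 3.53 in MCH replicates. The log2 ratio differed by 0.042 (exact permutation test, *P* = 0.429, adjusted 0.857). The lowest *P* value this design can give is 0.0286. In replicates 3 and 4 alpha and beta of *Nrxn3* were both lower than in replicates 1 and 2, and the log2 ratio was 1.79 against 1.70.

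The alpha class of *Nrxn2* was split between a pair of transcripts. *Nrxn2-204*, an alpha form without the splice site 4 exon, had 65.6 TPM over the 8 wells, *Nrxn2-201*, an alpha form with it, 62.0 TPM, and *Nrxn2-208* 9.65 TPM. *Nrxn2-205* was at 0 in 7 of the 8 wells. The beta class of *Nrxn2* was almost all *Nrxn2-202*, with 69.1 TPM against 0.730 TPM of *Nrxn2-203*. In *Nrxn3*, alpha was mostly *Nrxn3-205* (29.3 TPM), with *Nrxn3-210* at 1.98 TPM and *Nrxn3-201* at 0.075 TPM, and beta was *Nrxn3-202* (6.52 TPM) and *Nrxn3-203* (2.87 TPM). Most of these share all their exonic bases with other transcripts of the gene.

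The splice site 4 exon was included in most neurexin transcripts that span the site. Its share of their TPM in *Nrxn2* was 70.6%, 67.7%, 66.0% and 68.7% in vehicle replicates 1 to 4 and 66.9%, 67.8%, 68.8% and 67.6% in MCH replicates 1 to 4. In *Nrxn3* it was higher, at 85.0%, 89.1%, 84.6% and 82.4% in vehicle replicates and 83.5%, 83.9%, 84.6% and 88.0% in MCH replicates. The treatments overlapped in both genes. All annotated beta transcripts of *Nrxn2* at a sizeable level carry the exon, so the share rests on which annotated forms exist as well as on the reads. In *Nrxn3* only the beta form *Nrxn3-203* and *Nrxn3-213*, annotated for nonsense-mediated decay, lack it, and no alpha form does. The higher share in *Nrxn3* therefore also rests on the annotation, and a difference in splicing between the genes was not tested.

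Neuroligin site A was included at different shares in the 3 genes. In *Nlgn1*, transcripts with the site A exon held 43.7% to 57.9% with vehicle and 47.8% to 59.2% with MCH, and the same transcripts (*Nlgn1-201* and *Nlgn1-205*) carry the site B extension, so both sites have the same shares here. In *Nlgn2* the site A exon was in 90.02% to 93.3% of the TPM with vehicle and in 89.5% to 95.5% with MCH. In *Nlgn3* the second site A exon was in 53.5% to 60.5% with vehicle and in 53.4% to 58.6% with MCH. The first site A exon of *Nlgn3* was at 0% in all 4 vehicle-treated wells and in MCH replicates 1 and 2, and at 12.6% and 2.38% in MCH replicates 3 and 4. All its signal is the transcript *Nlgn3-206*, which did not pass the filter. The transcripts of *Nlgn2* and *Nlgn3* that lack the exons (*Nlgn2-203* and *Nlgn3-203*) are annotated only in part.

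**Figure D4:**
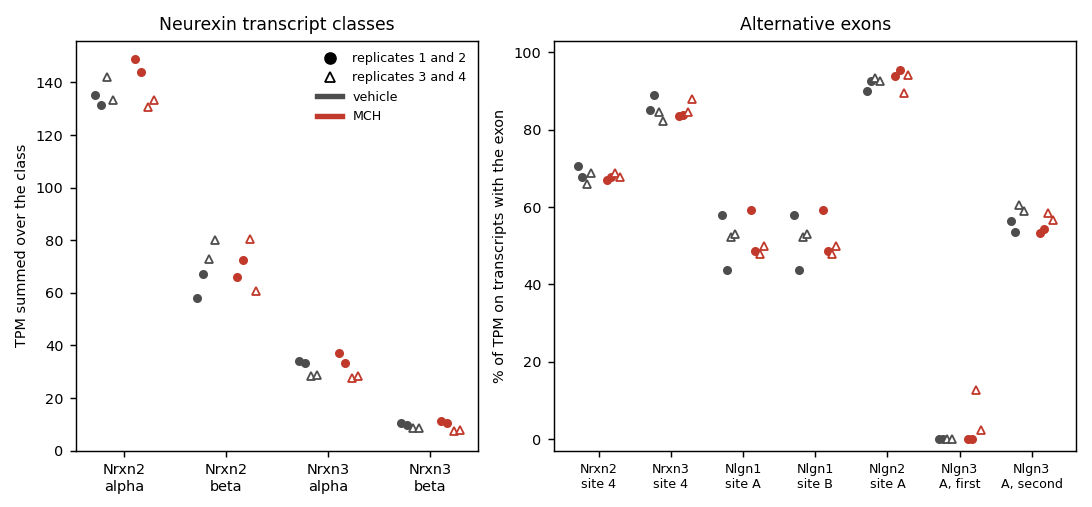
Left, TPM summed over the alpha and the beta transcripts of *Nrxn2* and *Nrxn3* in each well; right, percentage of the TPM of the transcripts that span each alternative exon that lies on transcripts with it. Circles are replicates 1 and 2, triangles replicates 3 and 4, and the treatments overlap at every exon and class.

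The estimates of *Nlgn3* transcripts differed in direction. *Nlgn3-202* had 2.36, 6.83, 2.31 and 1.504 TPM in vehicle replicates 1 to 4 and 7.79, 14.1, 6.79 and 12.6 TPM in MCH replicates 1 to 4. *Nlgn3-201* had 24.2, 18.6, 28.4 and 26.9 TPM in vehicle replicates and 21.4, 16.5, 17.8 and 17.6 TPM in MCH replicates. In both, the vehicle and MCH wells overlapped through vehicle replicate 2. The log2 fold changes were 1.64 ± 0.50 for *Nlgn3-202* and -0.44 ± 0.14 for *Nlgn3-201*, each with an edgeR adjusted *P* value of 0.984, and 0.840 with the replicate block.

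*Nlgn3-203*, the *Nlgn3* transcript with the highest mean (22.5 TPM), had 20.5, 22.1, 20.02 and 19.7 TPM in vehicle replicates and 25.5, 25.7, 22.2 and 24.2 TPM in MCH replicates. The lowest MCH well stood just above the highest vehicle well in TPM, and the log2 fold change was 0.22 ± 0.072 (edgeR adjusted *P* value 1.0). *Nlgn3-201* and *Nlgn3-202* have coding sequences of 2475 and 2133 bases. *Nlgn3-201* has 503 exonic bases that *Nlgn3-202* lacks, and *Nlgn3-202* has 42 that *Nlgn3-201* lacks, but 0 bases of *Nlgn3-201* and 7 of *Nlgn3-202* are in no other *Nlgn3* transcript. The locus *Gm21986*, annotated on the same strand and overlapping *Nlgn3*, had 8.93 CPM and a log2 fold change of -0.86 (edgeR adjusted *P* value 0.399).

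**Figure D5:**
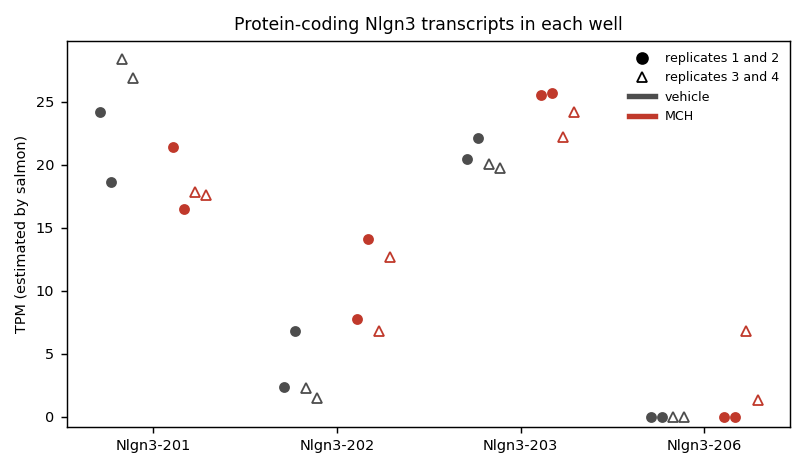
TPM estimated by salmon for the protein-coding *Nlgn3* transcripts in each well, vehicle in grey and MCH in red, circles for replicates 1 and 2 and triangles for replicates 3 and 4. *Nlgn3-202* lies at 1.504 to 6.83 TPM with vehicle and 6.79 to 14.1 TPM with MCH, and *Nlgn3-201* at 18.6 to 28.4 and 16.5 to 21.4 TPM.

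The leading transcript of *Lrrtm1* also had a higher mean with MCH. *Lrrtm1-202* held 67.9% of the *Lrrtm1* level, with 33.4 ± 3.14 TPM with vehicle and 39.3 ± 3.58 TPM with MCH (n = 4), a log2 fold change of 0.21 ± 0.087 (edgeR adjusted *P* value 1.0) and no overlap between the treatments. In *Nlgn1*, *Nlgn1-201* had 20.8 ± 2.81 TPM with vehicle and 22.7 ± 2.71 TPM with MCH. *Nlgn1-205* has 6186 exonic bases of its own and did not overlap between the treatments, with 3.33 ± 0.254 against 3.97 ± 0.259 TPM and a log2 fold change of 0.23 ± 0.074 (edgeR adjusted *P* value 0.991). *Nlgn2-202* had 86.3 ± 3.23 TPM with vehicle and 93.3 ± 12.2 TPM with MCH, and *Lrrtm4-208* had 6.92 ± 0.642 and 7.01 ± 0.397 TPM. *Lrrtm2* has 1 transcript in the files. The highest *Lrrtm3* transcript was *Lrrtm3-202*, which has no coding sequence, at 5.35 ± 1.92 and 5.41 ± 0.778 TPM, above the coding *Lrrtm3-201* at 3.85 ± 0.875 and 3.37 ± 0.938 TPM.

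Windows around the start sites of the members were searched on both strands for the cyclic AMP response element TGACGTCA, its core TGACG, which lies within it, and the AP-1 motif TGACTCA. RefSeq windows of the GRCm38.p6 build, from 250 bases before to 50 after a start, were given for 10 start sites of 6 members. The bases before the start at chr12:88794254-88794503 (*Nrxn3*) and at chr6:80019393-80019642 (*Lrrtm4*) end like an intron before an exon. These windows may therefore not be promoters. TGACGTCA was in 0 of the 10 and in 1.79% of 32851 windows of all genes, TGACTCA in 0 of the 10 and in 5.20% of all, and TGACG in 1 of the 10, of *Nlgn2*, and in 20.8% of all. The 250 bases before the *Nlgn2* start hold none of these motifs, so that TGACG does not lie before the start. The 250 bases before a start of *Lrrtm1* and of *Nlgn1*, the members whose treatments did not overlap in CPM, are shown without capitals, since none of these motifs was found in them. They lie at chr6:77242227-77242476 on the plus strand and at chr3:26331910-26332159 on the minus strand, with 42.0% and 53.6% G and C against a median of 52.4% over all windows. The printed *Nlgn1* window lies within the span of *Nlgn1-205*. A second *Nlgn1* window, at chr3:26153987-26154236, is not printed. It lies nearer the starts of *Nlgn1-201* and *Nlgn1-203*, which held 40.6% and 35.3% of the *Nlgn1* level.
*Lrrtm1*: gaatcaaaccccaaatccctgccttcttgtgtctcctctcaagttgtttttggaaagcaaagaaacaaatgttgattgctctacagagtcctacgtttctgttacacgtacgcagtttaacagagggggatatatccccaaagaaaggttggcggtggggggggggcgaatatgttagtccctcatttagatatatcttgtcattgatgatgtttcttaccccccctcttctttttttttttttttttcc
*Nlgn1*: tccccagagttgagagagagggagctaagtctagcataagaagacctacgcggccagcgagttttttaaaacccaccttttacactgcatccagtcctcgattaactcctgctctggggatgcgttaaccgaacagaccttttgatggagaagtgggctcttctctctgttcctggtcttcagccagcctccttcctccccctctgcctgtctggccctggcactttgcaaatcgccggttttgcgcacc

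Genes that act with these families were counted from lists chosen with earlier results of these data known, so the counts are a description. No list had a gene called by edgeR without a block or by limma voom. Of 16 other neurexin ligands, 14 were tested, with a median log2 fold change of -0.017 against -0.0027 over all genes. Unadjusted, 3 of them (*Nxph3*, *Cbln2* and *C1ql2*) had a *P* value under 0.05, and DESeq2 called 0. With the replicate block 2 were called, both lower, beside 2.25% of all genes called lower: *Nxph3*, a neurexophilin that binds alpha-neurexins, at 29.3 ± 1.49 CPM with vehicle and 23.8 ± 4.05 CPM with MCH (log2 fold change -0.31 ± 0.065 with the block, edgeR adjusted *P* value 0.0129), and *Cbln2*, a cerebellin, at 18.4 ± 1.46 and 15.3 ± 2.15 CPM (-0.27 ± 0.067, edgeR adjusted *P* value 0.0260). Both overlapped between the treatments. *Clstn3*, *C1ql2* and *Nxph1* came next, with block log2 fold changes of -0.089, 0.23 and -0.072 and edgeR adjusted *P* values of 0.0509, 0.0645 and 0.372.

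None of 15 regulators and partners of neuroligins and LRRTMs had an unadjusted *P* value under 0.05 or was called by DESeq2 or with the replicate block. Their median log2 fold change was 0.034, and 11 of the 15 were above 0. Among the lowest adjusted *P* values with the block were those of the postsynaptic scaffold genes *Dlgap1* (0.0828), *Shank2* (0.179), *Dlg2* (0.324) and *Magi2* (0.465), all from edgeR. Of 14 cytoplasmic partners and splicing regulators of neurexins, likewise 0 passed in any of these ways, and the median was 0.035. Lowest there were the edgeR adjusted *P* values of *Rbfox1* (0.0755), *Lin7c* (0.198), *Nova2* (0.225), *Khdrbs1* (0.304), a regulator of splice site 4, and *Lin7a* (0.350).

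Other adhesion molecules that organize synapses, from a list chosen in the same way, included more called genes with the block. Of 34, all tested, 6 were called higher and 0 lower, beside 1.73% of all genes called higher, and the median log2 fold change without a block was 0.034. Without a block, 7 had an unadjusted *P* value under 0.05 (8.50% of all genes had), DESeq2 called 2 (1.19% of all genes, here *Flrt1*, adjusted *P* value 0.0128, and *Slitrk3*, 0.0414), and 8 did not overlap between the treatments (6.03% of all genes did not). *Slitrk3*, known from inhibitory synapses, rose in the fit with the block from 90.3 ± 4.24 to 105.9 ± 7.20 CPM (log2 fold change 0.23 ± 0.035, edgeR adjusted *P* value 0.000698). The ephrin receptor gene *Epha4* rose there by 0.24 ± 0.036 (0.000944), *Flrt1* by 0.32 ± 0.060 (0.00510) and *Flrt3* by 0.21 ± 0.049 (0.0207), *Flrt* genes encoding leucine-rich repeat proteins that bind latrophilins. *Cadm2* rose by 0.14 ± 0.038 (edgeR adjusted *P* value 0.0407), and the sixth, *Ephb2*, by 0.15 ± 0.042 (0.0450). Without the block the edgeR adjusted *P* values of these 6 ranged from 0.155 (*Flrt1*) to 0.693 (*Cadm2*).

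Among the cell type markers, edgeR without a block called 0, DESeq2 0 and limma voom 0, and 1 (*Mbp*, of myelin) had an unadjusted *P* value under 0.05. With the replicate block *Gad1*, which makes GABA in inhibitory neurons, was lower (log2 fold change -0.096 ± 0.025, edgeR adjusted *P* value 0.0349) and the glial glutamate transporter gene *Slc1a2* was higher (0.15 ± 0.035, 0.0353). Of the 8 astrocyte markers, 5 had log2 fold changes below 0 with the block, and their median was -0.012. Their part in the differences of *Nlgn1*, *Nlgn3* and *Lrrtm1* was not tested.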

How the data were processed

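The authors quantified stranded poly-A libraries against GRCm38 with salmon, run through nf-core/rnaseq; labels list DESeq2 1.13.0 and R 4.0.3. The deposited gene table holds estimated counts without normalization. The deposited transcript tables hold estimated counts, effective lengths and TPM, scaled by the authors' salmon run for length and depth. Identifiers were matched to GENCODE vM21, which may not be the authors' release (98.8% of genes and 98.7% of transcripts). The treatment and replicate of each well come from the labels, and dose and cultures from the study's methods.

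Estimated counts were rounded and tested in R 4.3.3 with edgeR 4.0.16 (TMM, filterByExpr with count minimum 10 and total minimum 15, quasi-likelihood F test without a block, Benjamini–Hochberg over 14962 genes or 33527 transcripts, threshold 0.05), with DESeq2 1.42.0 and limma 3.58.1 voom as alternatives. CPM use the TMM factors. The standard error is the log2 fold change over the square root of F. Alpha transcripts are protein-coding with over 3000 coding bases; beta transcripts start past the middle of the gene and have 900 to 2500. Their log2 TPM ratio took a pseudocount of 0.01. Exon shares use transcripts that span the exon. The tests were tried on simulated data. The study's methods give 2 cultures with a pair of wells per treatment in each, but no label ties a well to a culture. Tests without a block treat the 4 wells of a treatment as independent. The replicate block takes the 4 assumed pairs as independent, and a block on the replicate groups takes the wells within a group as independent. The *P* values of all these tests, with or without a block, measure the spread between wells or pairs and not between cultures.

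Whether equal replicate numbers pair the wells was checked by centring log2 CPM within each treatment. The 4 equal-numbered pairs correlated at 0.445 to 0.545 (a rule of over 0.1 in every pair), unequal numbers within the replicate groups 1, 2 or 3, 4 at 0.475 to 0.521, and wells from different groups at -0.548 to -0.438. These values separate the replicate groups but do not tell equal from unequal numbers within a group. Unequal numbers within a group also met the rule, so it cannot decide the pairing. Equal numbers were used as pairs and as the block by assumption and not from the labels.

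The members and gene lists were chosen with earlier results of these data known. Named are all members, the alpha and beta transcripts, the highest transcript of each other member and any called, in each list the called genes or otherwise the 5 lowest adjusted *P* values with the block, and the gene most like each member; other names were chosen after their values were seen. Some items that this rule covers are not reported here.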

Additional observations from a re-analysis of the deposited data

Results flagged for a closer look

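Among the values per well of the members, the neurexin ratios, the exon shares and the *Nlgn3* transcripts, 1 well stood far from the other 3 of its treatment, in 46 groups of 4 wells examined. *Nlgn3-202* had 6.83 TPM in vehicle replicate 2, against 1.504 to 2.36 TPM in the other vehicle-treated wells. Chance alone sets about 1 in 20 such groups apart. In the same well *Nlgn3-201* had the lowest of the vehicle levels, 18.6 TPM.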

How the results depend on the processing

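Without a block edgeR called 35 genes and 0 members. DESeq2 called 154 genes and 1 member, the replicate block 596 and 3, the batch block (replicates 1 and 2 against 3 and 4) 668 and 3, and the length offset 6 and 0. Leaving out 1 well at a time gave 4 to 29 genes and 0 to 0 members, and the other alternatives called 0 members. The lowest count was without vehicle replicate 4. No transcript of a member was called by edgeR with other size factors, without the filter, with either block or with 1 well left out, and transcripts were tested with no other tool. *Lrrtm1*, *Nlgn1* and *Nlgn3* kept their direction throughout, with log2 fold changes of 0.18 to 0.23, 0.12 to 0.17 and 0.097 to 0.17 when 1 well was left out. *Nlgn2* was 0.079 with the length offset and reversed from 7.5e-05 to -0.00058 with limma voom, -0.00052 with the replicate block and -0.00063 with the batch block, and ranged from -0.016 to 0.024 when 1 well was left out. *Nrxn3* ranged there from -0.096 to 0.11 and *Lrrtm3* from -0.19 to 0.042, both changing sign. The log2 alpha-to-beta ratio of *Nrxn2* ranged from -0.049 to 0.13 and that of *Nrxn3* from 0.012 to 0.074. With the replicate block (sign flips of the 4 pairs, smallest possible *P* value 0.125, so that it cannot pass) the differences were 0.030 (exact *P* = 0.875) and 0.042 (exact *P* = 0.5). Beyond the 3 members and the listed genes named above, the block changed no call given here. The cause of these changes was not tested.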
